A study of Mus musculus with 24 samples.

Results

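The transforming growth factor beta (TGF-beta) genes described here include the ligands Tgfb1, Tgfb2 and Tgfb3 and the receptors Tgfbr1 and Tgfbr2. The others are the latent TGF-beta binding protein genes Ltbp1, Ltbp2 and Ltbp3, and the TGF-beta-induced matrix gene Tgfbi. All were chosen by name for their roles, with earlier results of these data known. They make up 9 of the 34885 genes with at least 1 count in the series. All 9 passed the filter on low counts that left 16424 genes for testing. TGF-beta ligands are secreted in a latent form, bound to their own propeptide. Some latent TGF-beta binding proteins tether that complex to the extracellular matrix. Once released, the ligand binds the type II receptor Tgfbr2, which recruits and phosphorylates the type I receptor Tgfbr1, and SMAD transcription factors then carry the signal to the nucleus. In bone, TGF-beta is stored in the matrix, is released during resorption, and acts on osteoblasts and osteocytes.

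RNA was sequenced from Ocy454, a mouse osteocytic cell line, to follow how lysophosphatidic acid (LPA), a signalling lipid that acts through G protein-coupled receptors, and 1,25-dihydroxyvitamin D (1,25D), the hormone that activates the vitamin D receptor, act alone and together. There were 8 groups of 3 libraries: vehicle, 1,25D, LPA or both agents, each at 2 h and at 8 h. All 24 libraries came from this 1 line, the labels state neither the doses nor the vehicle, and they do not tie replicates to independent cultures. The p-values therefore rest on library-to-library spread, which may be technical. RNA came from whole cultures, in which fewer cells of a kind and less RNA per cell cannot be told apart.

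The labels of the single treatments conflict: the libraries titled 1,25D hold tables with the treatment code L, and the libraries titled LPA hold tables with the code D. Levels are given as CPM, counts scaled to library size and composition. Cyp24a1, the vitamin D catabolic enzyme and a standard target of the vitamin D receptor, had 1 count in all in the vehicle libraries at 8 h, 1 in the libraries titled 1,25D, 102 in the libraries titled LPA and 87 with both agents. Vdr, the vitamin D receptor, averaged 125 CPM in vehicle at 8 h, 72.3 in the libraries titled 1,25D and 254 in those titled LPA. Egr2, an immediate early gene, averaged 17.6 CPM in vehicle at 2 h, 141 in the libraries titled 1,25D and 11.3 in those titled LPA. These values go against the titles. The single treatments are therefore called below L-coded (the libraries titled 1,25D) and D-coded (the libraries titled LPA), and no direction below assigns an effect to either agent by name.

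Library totals were 32.96 to 33.84 M estimated counts, and mitochondrial transcripts held 9.01% to 16.92% of them. Of 15 osteocyte and osteoblast markers, 9 averaged at least 1 CPM, among them the matrix gene Col1a1 and the osteoblast regulator Runx2. Dmp1, an osteocyte matrix gene, had group means of 2.00 to 4.12 CPM, while the late osteocyte markers Sost, Mepe and Fgf23 had 30, 1 and 17 counts in all 24 libraries together. Of 12 macrophage and blood markers, 4 averaged at least 1 CPM (Cd14, Cd68, Ctsk and Ppbp), and the list summed to 48.5 to 78.2 CPM per library. The 6 endothelial markers summed to 1.81 to 2.97 CPM, the 8 adipocyte and muscle markers to 0.546 to 1.65 CPM, and the 6 chondrocyte markers to 3.06 to 25.7 CPM, of which Sox9 was the only one to average 1 CPM. Replicate 2 of vehicle at 8 h and replicate 2 of both agents at 8 h stood apart from their groups on the leading component of within-group variation, and differences whose call changes without them are given both ways. Vehicle replicate 2 at 8 h also had the highest mitochondrial share, 16.92%, with the next library at 14.04%, and the part of this share in the results was not tested.

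Per unit of transcript length, the receptor Tgfbr2 had the highest level of the 9 genes, with a mean of 49.5 TPM (a unit scaled for transcript length and library size) over the 24 libraries and a range of 29.3 to 67.3. Ltbp3 averaged 49.0 TPM (15.4 to 76.9), Ltbp1 44.8 TPM (28.3 to 69.4) and Tgfb1 42.8 TPM (16 to 62.3). Tgfb3 averaged 32.6 TPM (22.4 to 40.4) and Tgfb2 17.0 TPM (4.87 to 40.9). The lowest levels were those of Tgfbi at 6.98 TPM (3.99 to 9.26), Ltbp2 at 3.36 TPM (0.504 to 8.92) and Tgfbr1 at 2.43 TPM (1.68 to 3.53). Every pair of neighbours in this order had overlapping ranges over the libraries. CPM per kilobase gave the same order, but its lengths came from the same deposited estimates, so it is no separate check.

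**Figure D1:**
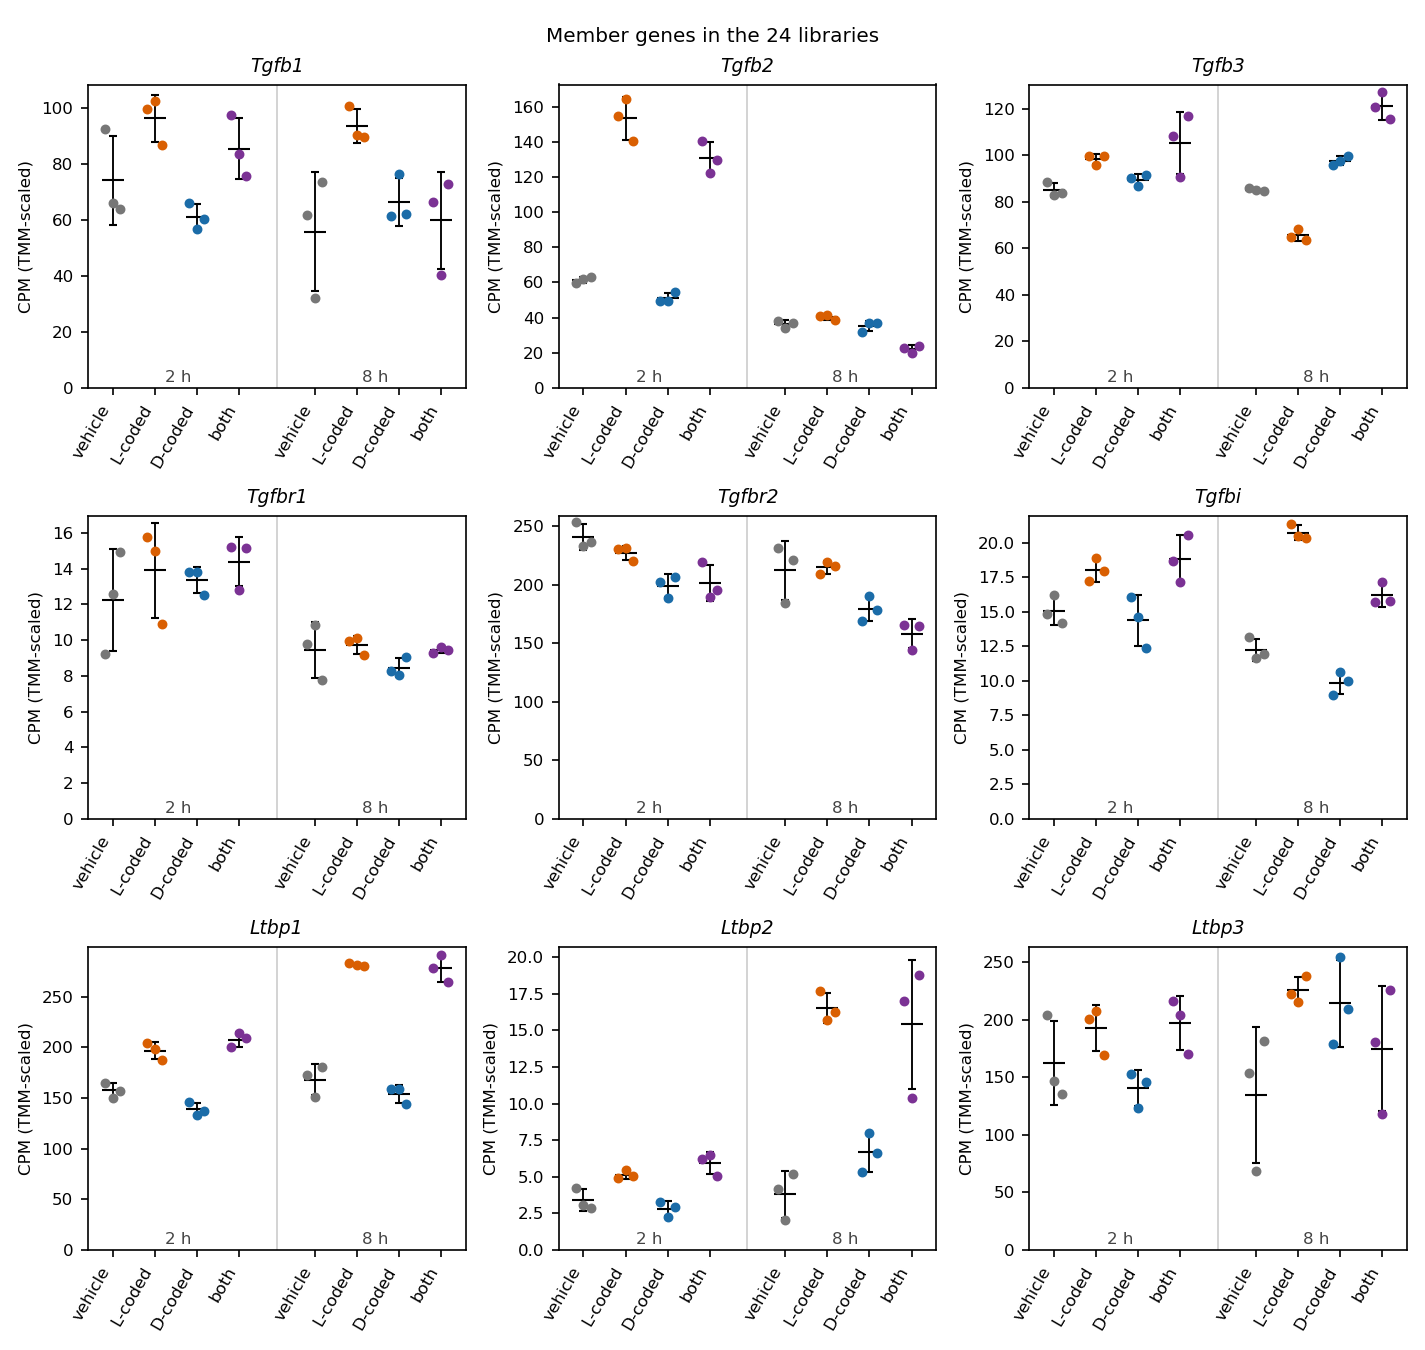
CPM of each of the 9 genes in every library, by group at 2 h and 8 h; points are libraries and bars are group means with SD (n = 3), with vehicle grey, L-coded orange, D-coded blue and both agents purple. Tgfb2 stands at 141 to 165 CPM in the L-coded libraries at 2 h against 59.7 to 63.1 in vehicle, and Ltbp2 at 15.7 to 17.7 CPM in the L-coded libraries at 8 h against 2.05 to 5.20 in vehicle.

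The ligand Tgfb2 changed most at 2 h. Its vehicle libraries at 2 h stood at 59.7, 61.8 and 63.1 CPM, the L-coded libraries at 155, 165 and 141 CPM, the D-coded libraries at 49.2, 49.5 and 54.4 CPM, and the libraries with both agents at 140, 122 and 130 CPM. The L-coded and combined libraries lay above every vehicle library, and the D-coded libraries lay below them. Tgfb2 rose by a log2 fold change of 1.32 ± 0.08 (SE) in the L-coded libraries (2.49-fold, adjusted p = 9.14e-11, edgeR's quasi-likelihood test with Benjamini-Hochberg adjustment) and by 1.09 ± 0.08 with both agents (2.13-fold, adjusted p = 1.68e-09). The D-coded difference of -0.27 did not pass the test (adjusted p = 0.136), and passed it without the 2 libraries that stood apart at 8 h (-0.28, adjusted p = 0.0375).

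By 8 h the Tgfb2 pattern differed. Vehicle stood at 38.0, 33.9 and 36.7 CPM, lower than every vehicle library at 2 h (log2 fold change -0.76 ± 0.08, adjusted p = 1.29e-06). The L-coded libraries stood at 40.8, 41.2 and 38.7 CPM, the D-coded libraries at 32.0, 36.6 and 37.0 CPM, and the libraries with both agents at 22.7, 19.6 and 23.8 CPM. Only the combined libraries differed from vehicle by the test at 8 h: Tgfb2 fell by 0.72 on the log2 scale (SE 0.08, adjusted p = 1.33e-06), and by 0.69 without the 2 libraries that stood apart (adjusted p = 6.39e-06). The L-coded difference was 0.15 (adjusted p = 0.222) and the D-coded difference -0.04 (adjusted p = 0.771).

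The 250 bases upstream of the annotated start of Tgfb2 are shown because this gene moved furthest at 2 h. The sequence is from RefSeq, chr1:186705990-186706239 on the minus strand of GRCm38.p6, 5′ to 3′ along the gene. Capitals mark any match, on either strand, to 7 motifs. These are the cyclic AMP response element (CRE) letters TGACGTCA, the site of AP-1 factors written as TGANTCA, the site of TEAD factors written as GGAATG, the box named for its letters TATAAA, the site of EGR factors written as GCGTGGG, the site of SP and KLF factors written as GGGCGG, and the core letters CAGAC that SMAD proteins contact.
Tgfb2: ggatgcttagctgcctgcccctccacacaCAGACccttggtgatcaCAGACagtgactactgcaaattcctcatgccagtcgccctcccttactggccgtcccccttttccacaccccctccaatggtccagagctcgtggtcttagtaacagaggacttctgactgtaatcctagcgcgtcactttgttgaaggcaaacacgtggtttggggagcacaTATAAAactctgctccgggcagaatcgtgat
The window holds a TATA match 31 to 26 bases before the start and SMAD core matches at 221 to 217 and 204 to 200 bases before it. Of 32851 mouse windows of this length, 12.4% hold the TATA letters and 42.2% the SMAD core, and a match describes the sequence only.

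Tgfb3 moved in opposite directions in the L-coded and combined libraries at 8 h. Its vehicle libraries stood at 85.9, 85.2 and 84.5 CPM, the L-coded libraries at 65.1, 68.5 and 63.5 CPM, the D-coded libraries at 95.8, 97.6 and 99.8 CPM, and the libraries with both agents at 121, 127 and 116 CPM. None of the 4 groups overlapped another. Tgfb3 fell by 0.38 on the log2 scale in the L-coded libraries (SE 0.07, adjusted p = 0.000716) and rose by 0.51 ± 0.07 with both agents (1.42-fold, adjusted p = 1.15e-05). The D-coded difference of 0.20 did not pass the test (adjusted p = 0.0638). Without the 2 libraries that stood apart, the L-coded and combined differences were -0.37 and 0.47.

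At 2 h the Tgfb3 differences were smaller. Vehicle stood at 88.6, 83.1 and 83.6 CPM, the L-coded libraries at 99.95, 96.0 and 99.7 CPM, the D-coded libraries at 90.2, 86.7 and 91.5 CPM, and the libraries with both agents at 108.5, 90.8 and 117 CPM. Tgfb3 rose by 0.31 with both agents (adjusted p = 0.00248). It rose by 0.21 in the L-coded libraries (adjusted p = 0.0430), a call that was lost when any 1 of the 6 libraries was left out (log2 fold changes 0.20 to 0.24, adjusted p = 0.0623 to 0.137) and without the 2 libraries that stood apart at 8 h (0.20, adjusted p = 0.0508).

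Tgfb1, the most widely expressed ligand of the family, varied more between replicates. At 8 h its vehicle libraries stood at 61.7, 32.2 and 73.4 CPM, the L-coded libraries at 100.5, 90.3 and 89.4 CPM, the D-coded libraries at 61.2, 76.3 and 61.9 CPM, and the libraries with both agents at 66.4, 40.1 and 72.8 CPM. Replicate 2 was the lowest library in both the vehicle and the combined group, and the L-coded libraries lay above all the others. Tgfb1 rose by 0.74 ± 0.22 in the L-coded libraries (adjusted p = 0.0267), with no call for the D-coded libraries (0.25, adjusted p = 0.472) or for both agents (0.10, adjusted p = 0.839). The call was lost without replicate 2 of vehicle or without any 1 L-coded library (0.47 to 0.77, adjusted p = 0.0516 to 0.149); without the 2 libraries that stood apart the difference was 0.47 (adjusted p = 0.0346). At 2 h vehicle stood at 92.4, 66.0 and 63.8 CPM and the L-coded libraries at 99.7, 102 and 86.5 CPM, with 66.1, 56.8 and 60.3 CPM in the D-coded libraries and 97.2, 83.5 and 75.4 CPM with both agents. Each treated group overlapped vehicle, and none differed from it by the test (adjusted p = 0.313 to 0.601).

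The share of each ligand in the summed ligand TPM followed these differences. In vehicle at 2 h, Tgfb1 held 48.0% ± 4.67 (SD, n = 3), Tgfb3 34.3% ± 2.21 and Tgfb2 17.7% ± 2.46. In the L-coded libraries at 2 h the Tgfb2 share was 29.4% ± 1.10 and with both agents 27.9% ± 0.585, and neither range overlapped the vehicle range of 14.9% to 19.6%. At 8 h the L-coded libraries held 61.2% ± 1.27 Tgfb1 and 26.5% ± 1.58 Tgfb3, the libraries with both agents held 41.0% ± 8.00 Tgfb1, 52.0% ± 7.42 Tgfb3 and 7.09% ± 0.584 Tgfb2, and vehicle held 43.9% ± 9.81 Tgfb1, 43.2% ± 7.99 Tgfb3 and 12.9% ± 1.89 Tgfb2. The Tgfb1 and Tgfb3 shares of the L-coded libraries lay outside the vehicle ranges. The combined libraries overlapped vehicle in both, and lay outside it only for Tgfb2 (6.62% to 7.74% against 11.1% to 14.8%). The summed ligand TPM was 92.4 ± 13.2 in vehicle, 130 ± 11.2 in L-coded, 78.0 ± 7.0 in D-coded and 119 ± 12.8 in combined libraries at 2 h, and 69.6 ± 19.4, 86.9 ± 2.76, 86.1 ± 10.9 and 77.0 ± 12.3 at 8 h. Shares and sums are of RNA, and were not tested.

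**Figure D2:**
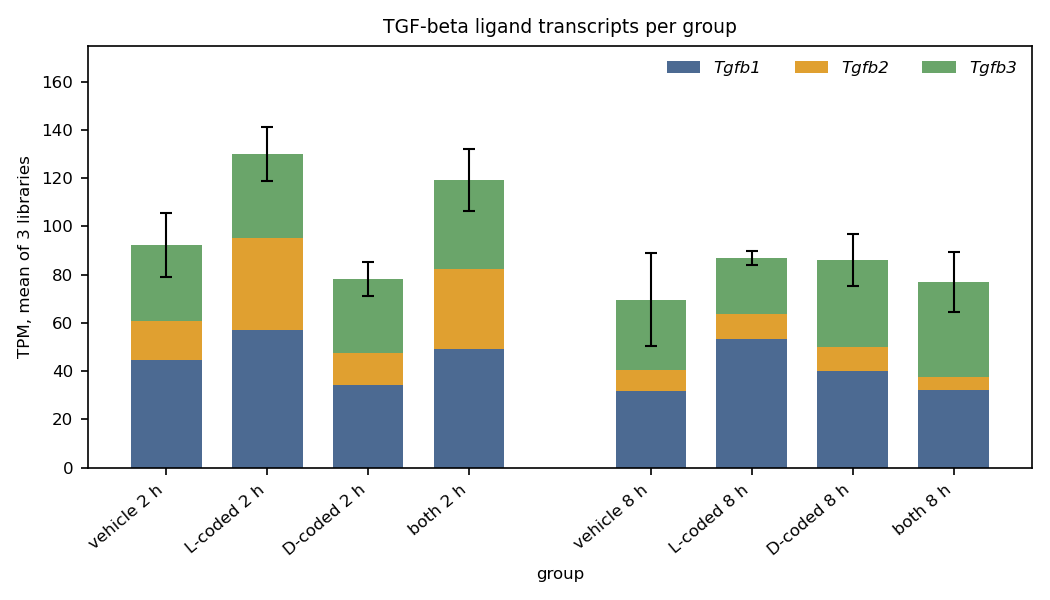
Stacked mean TPM of Tgfb1, Tgfb2 and Tgfb3 in each of the 8 groups (3 libraries each), with error bars giving the SD of the summed ligand TPM. The Tgfb2 segment is widest in the L-coded and combined libraries at 2 h, where it is 29.4% and 27.9% of the sum, and narrowest with both agents at 8 h, at 7.09%.

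Of the receptors, only Tgfbr2 differed from vehicle by the test, and every call was a fall. At 8 h its vehicle libraries stood at 232, 184 and 221 CPM, the L-coded libraries at 209, 220 and 216 CPM, the D-coded libraries at 170, 190 and 179 CPM, and the libraries with both agents at 166, 144 and 165 CPM. The combined libraries lay below all vehicle libraries, and the D-coded libraries overlapped them. Tgfbr2 fell by 0.42 on the log2 scale with both agents (SE 0.08, adjusted p = 0.000518; 0.46 without the 2 libraries that stood apart, adjusted p = 0.000167), and this call was lost when only the 2 groups compared were fitted (adjusted p = 0.0698). It fell by 0.24 in the D-coded libraries (adjusted p = 0.0496), a call lost without replicate 1 or 3 of vehicle or of the D-coded group (adjusted p = 0.0691 to 0.122); without the 2 libraries that stood apart the difference was -0.36 (adjusted p = 0.00123).

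At 2 h Tgfbr2 stood at 254, 233 and 237 CPM in vehicle, 230, 231 and 221 CPM in the L-coded libraries, 203, 189 and 207 CPM in the D-coded libraries, and 219, 190 and 196 CPM with both agents. It fell by 0.26 with both agents (adjusted p = 0.0243), a call lost without replicate 1 of vehicle or replicate 2 or 3 of the combined group (adjusted p = 0.0850 to 0.118). The D-coded difference of -0.27 did not pass the test (adjusted p = 0.124), although its libraries did not overlap vehicle, and passed it without the 2 libraries that stood apart at 8 h (-0.29, adjusted p = 0.0157).

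Tgfbr1, the type I receptor, was called in none of the 18 comparisons made. Its vehicle libraries stood at 9.24, 12.6 and 15.0 CPM at 2 h and at 9.76, 10.9 and 7.77 CPM at 8 h, and each treated group overlapped its vehicle group. The 95% intervals of its 6 log2 fold changes against vehicle lay between -0.48 and 0.55, and differences within these bounds were not resolved with 3 libraries a group. The ratio of Tgfbr2 to Tgfbr1 TPM had group means of 15.7 to 25.4.

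Among the latent TGF-beta binding protein genes, Ltbp1 rose in the L-coded and combined libraries at both times. At 2 h its vehicle libraries stood at 165, 150 and 157 CPM, the L-coded libraries at 204, 198 and 188 CPM, the D-coded libraries at 146, 133 and 137 CPM, and the libraries with both agents at 200, 214 and 209 CPM. At 8 h vehicle stood at 173, 151 and 180 CPM, the L-coded libraries at 284, 282 and 280.5 CPM, the D-coded libraries at 159, 159 and 144 CPM, and the libraries with both agents at 278, 292 and 264 CPM. The L-coded and combined libraries lay above every vehicle library at each time. The rises were 0.32 ± 0.07 (adjusted p = 0.00191) and 0.40 ± 0.07 (adjusted p = 0.000145) at 2 h, and 0.75 ± 0.07 (1.68-fold, adjusted p = 1.24e-07) and 0.73 ± 0.07 (1.65-fold, adjusted p = 4.95e-08) at 8 h. The rises at 8 h were 0.68 and 0.62 without the 2 libraries that stood apart. The D-coded differences of -0.18 and -0.13 did not pass the test (adjusted p = 0.231 and 0.206); the second was -0.22 without those 2 libraries (adjusted p = 0.0496).

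Ltbp1 is annotated with transcripts from 2 starts that lie 173 kb apart. The 2 transcripts of the upstream start held 12.9% to 17.7% of the TPM at these starts, as group means, and the 3 transcripts of the downstream start held the rest. At 8 h the upstream start averaged 5.12 ± 0.857 TPM in vehicle, 9.35 ± 0.437 in the L-coded libraries, 6.25 ± 1.29 in the D-coded libraries and 7.72 ± 1.46 with both agents. The downstream start averaged 31.3 ± 7.24, 54.3 ± 4.71, 28.9 ± 2.39 and 49.5 ± 0.990 TPM in the same groups. The L-coded mean was 1.83 times vehicle at the upstream start and 1.73 times at the downstream start, and the combined mean 1.51 and 1.58 times. Transcript levels are estimates that divide shared reads between models, and were not tested.

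**Figure D3:**
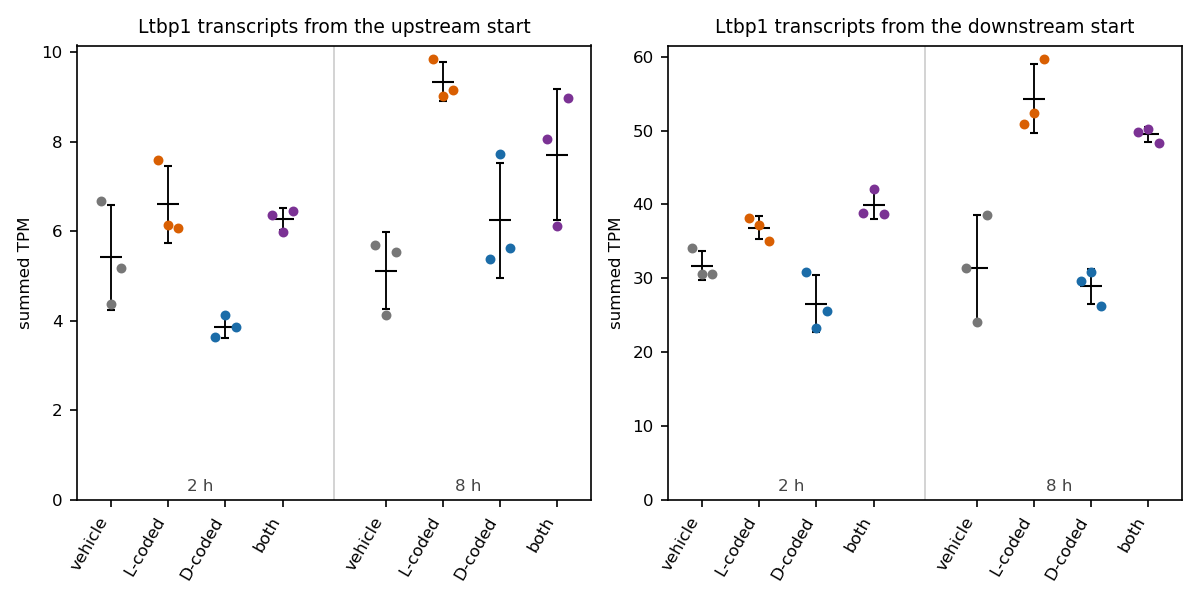
Summed TPM of the Ltbp1 transcripts from the upstream start and from the downstream start in each group; points are libraries, and the horizontal bars and whiskers are means with SD (n = 3). At 8 h both starts have higher means in the L-coded (9.35 and 54.3 TPM) and combined libraries (7.72 and 49.5 TPM) than in vehicle (5.12 and 31.3 TPM).

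The windows upstream of both Ltbp1 starts are shown because their transcripts had higher means together, and that of Ltbp2 because it had the highest fold change of the 9 genes at 8 h. They are the 250 bases before each start in RefSeq, on GRCm38.p6: chr17:75005279-75005528 (plus strand) for the upstream and chr17:75178531-75178780 (plus strand) for the downstream start of Ltbp1, and chr12:84876492-84876741 (minus strand) for Ltbp2. Capitals mark the same 7 motifs.
Ltbp1 upstream start: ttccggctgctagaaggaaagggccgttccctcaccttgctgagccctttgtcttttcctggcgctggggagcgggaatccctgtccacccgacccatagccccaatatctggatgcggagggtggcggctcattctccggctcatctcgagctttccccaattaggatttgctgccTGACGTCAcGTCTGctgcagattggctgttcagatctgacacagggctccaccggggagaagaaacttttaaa
Ltbp1 downstream start: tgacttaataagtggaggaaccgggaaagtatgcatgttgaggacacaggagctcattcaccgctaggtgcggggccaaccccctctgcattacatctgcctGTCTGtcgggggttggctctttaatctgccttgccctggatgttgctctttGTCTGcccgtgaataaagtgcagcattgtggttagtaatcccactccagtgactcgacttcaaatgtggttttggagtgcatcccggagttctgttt
Ltbp2: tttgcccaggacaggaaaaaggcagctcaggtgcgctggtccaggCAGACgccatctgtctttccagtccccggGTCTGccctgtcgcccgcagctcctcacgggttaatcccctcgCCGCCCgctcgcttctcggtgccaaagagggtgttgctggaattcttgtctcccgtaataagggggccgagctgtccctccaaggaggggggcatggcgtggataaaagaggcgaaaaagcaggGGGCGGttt
The upstream Ltbp1 window holds a CRE match at 73 to 66 bases before the start, letters that 1.55% of the 32851 windows hold, beside a SMAD core match at 64 to 60. The downstream Ltbp1 window holds SMAD core matches at 148 to 144 and 97 to 93 and no CRE match. The Ltbp2 window holds SP/KLF matches at 133 to 128 and 9 to 4, letters found in 32.7% of windows, and SMAD core matches at 205 to 201 and 176 to 172.

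Ltbp2, a matrix protein of the same family, had the highest fold change of the 9 genes against vehicle. At 8 h its vehicle libraries stood at 4.14, 2.05 and 5.20 CPM, the L-coded libraries at 17.7, 15.7 and 16.2 CPM, the D-coded libraries at 5.34, 8.01 and 6.62 CPM, and the libraries with both agents at 17.0, 10.4 and 18.8 CPM. All 3 treated groups lay above every vehicle library. Ltbp2 rose by 2.12 ± 0.25 in the L-coded libraries (4.34-fold, adjusted p = 6.85e-06) and by 2.02 ± 0.25 with both agents (4.05-fold, adjusted p = 4.51e-06), and by 1.83 and 1.94 without the 2 libraries that stood apart. It rose by 0.81 in the D-coded libraries (adjusted p = 0.0429), a call lost without replicate 1 or 2 of vehicle or replicate 2 or 3 of the D-coded group (0.50 to 0.84, adjusted p = 0.0705 to 0.259) and without the 2 libraries that stood apart (0.49, adjusted p = 0.115).

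At 2 h Ltbp2 stood at 4.23, 3.04 and 2.86 CPM in vehicle, 4.89, 5.46 and 5.03 CPM in the L-coded libraries, 3.30, 2.27 and 2.90 CPM in the D-coded libraries, and 6.22, 6.51 and 5.06 CPM with both agents. It rose by 0.81 with both agents (adjusted p = 0.0294), a call lost without replicate 2 or 3 of vehicle or replicate 1 or 2 of the combined group (adjusted p = 0.0783 to 0.116). The L-coded libraries lay above vehicle but the difference of 0.60 did not pass the test (adjusted p = 0.143; without the 2 libraries that stood apart, 0.59 and adjusted p = 0.0175). The full-length model Ltbp2-201 held 74.0% of the gene's counts, and a model of 614 bases held 11% of its counts and 63.6% of its TPM, so the Ltbp2 level per length rests mostly on that short model.

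Ltbp3, which binds latent TGF-beta, had wide groups. At 8 h its vehicle libraries stood at 153, 68.8 and 182 CPM, the L-coded libraries at 222, 216 and 238 CPM, the D-coded libraries at 179, 254 and 209 CPM, and the libraries with both agents at 180, 118 and 226 CPM. It rose by 0.74 ± 0.25 in the L-coded libraries (adjusted p = 0.0487), whose values lay above vehicle. The call was lost when any library of the 6 but replicate 3 of vehicle was left out (adjusted p = 0.0602 to 0.239) and without the 2 libraries that stood apart (0.43, adjusted p = 0.106). No other difference of Ltbp3 from vehicle passed the test: the other log2 fold changes were 0.67 (D-coded, adjusted p = 0.0847) and 0.38 (both agents, adjusted p = 0.377) at 8 h, and lay between -0.21 and 0.28 at 2 h. The combined difference at 8 h was 0.43 (adjusted p = 0.0121) when only vehicle and both agents at 8 h were fitted with the replicate number as a block, a fit chosen after seeing the data. The sources used here do not say whether counting used strand, so for all 9 genes reads from an antisense transcript would not be told apart.

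Tgfbi, a secreted matrix protein named for its induction by TGF-beta, stood at 13.2, 11.6 and 11.9 CPM in vehicle at 8 h, 21.3, 20.5 and 20.3 CPM in the L-coded libraries, 9.0, 10.7 and 9.95 CPM in the D-coded libraries, and 15.7, 17.1 and 15.7 CPM with both agents. The L-coded libraries were highest, the combined libraries next and the D-coded libraries below vehicle, with no overlap between groups. Tgfbi rose by 0.76 ± 0.10 in the L-coded libraries (1.70-fold, adjusted p = 1.54e-05; 0.73 without the 2 libraries that stood apart). It rose by 0.40 with both agents (adjusted p = 0.00529; 0.32 and adjusted p = 0.0814 without those 2 libraries). It fell by 0.31 in the D-coded libraries (adjusted p = 0.0465), a call lost without replicate 1 or 2 of vehicle or replicate 1 or 3 of the D-coded group (adjusted p = 0.0583 to 0.105) and kept without the 2 libraries (-0.36, adjusted p = 0.0455).

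At 2 h Tgfbi stood at 14.8, 16.2 and 14.2 CPM in vehicle, 17.2, 18.9 and 17.9 CPM in the L-coded libraries, 16.1, 14.6 and 12.4 CPM in the D-coded libraries, and 18.7, 17.1 and 20.6 CPM with both agents. The rise of 0.32 with both agents passed the test (adjusted p = 0.0226), and was lost without replicate 1 or 3 of either group (adjusted p = 0.0514 to 0.120). The L-coded libraries lay above vehicle, but the difference of 0.26 did not pass (adjusted p = 0.0879).

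**Figure D4:**
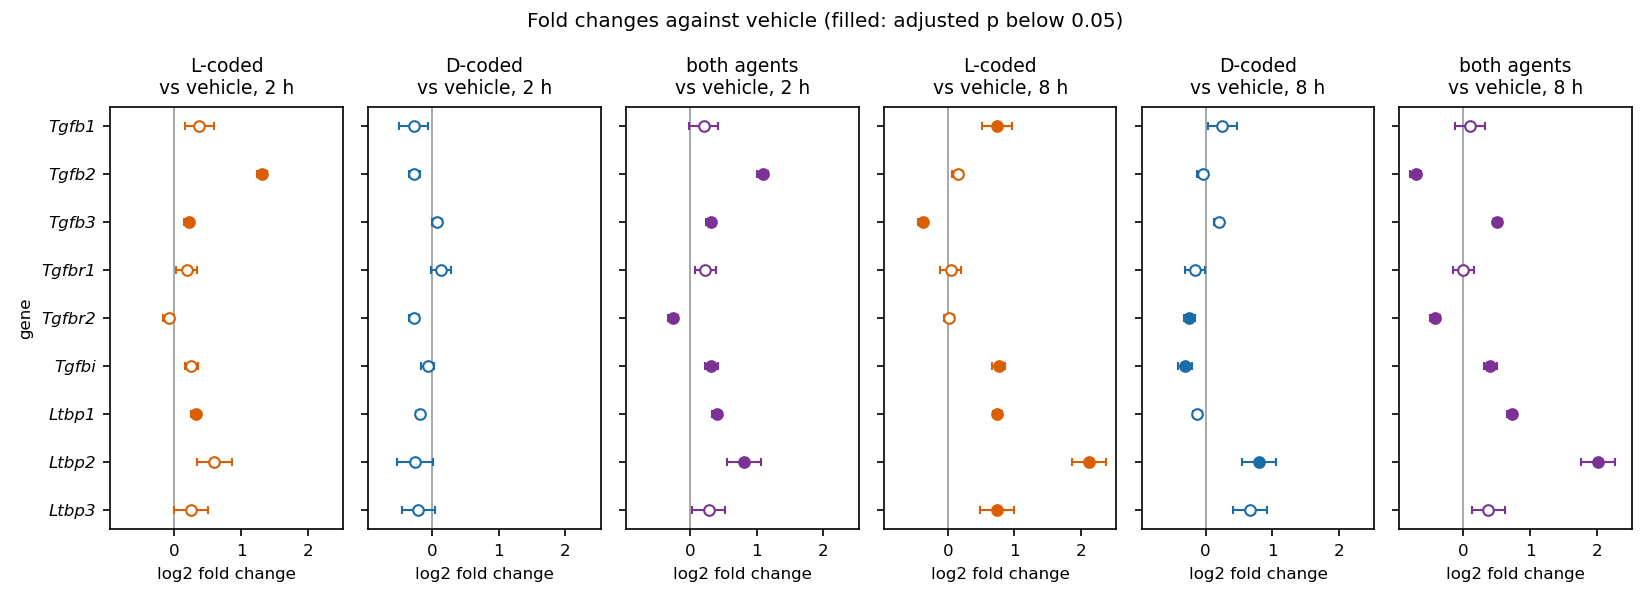
Log2 fold change against vehicle of the 9 genes in the L-coded, D-coded and combined libraries at 2 h and 8 h; error bars are standard errors and filled points have an adjusted p below 0.05. At 8 h Ltbp2 reaches 2.12 in the L-coded and 2.02 in the combined libraries, and Tgfb2 and Tgfbr2 lie at -0.72 and -0.42 in the combined libraries.

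Counted over the 9 genes, 3 rose and 0 fell in the L-coded libraries at 2 h, where 13.9% of all 16424 genes were called, and 5 rose and 1 fell with both agents, where 19.9% were called. In the D-coded libraries at 2 h 0 of the 9 genes were called by edgeR against 0.785% of all genes. In edgeR 3 had an unadjusted p below 0.05 (Tgfb2, Ltbp1 and Tgfbr2), and DESeq2 called 1. Here and below, the shares of all genes are edgeR calls at an adjusted p below 0.05. They are therefore no background for counts at an unadjusted p or by DESeq2, whose shares of all genes are not given. At 8 h 5 rose and 1 fell in the L-coded libraries (16.2% of all genes called), 1 rose and 2 fell in the D-coded libraries (12.0%), and 4 rose and 2 fell with both agents (16.8%). The median log2 fold change of the 9 genes was 0.26, -0.21 and 0.31 at 2 h and 0.74, -0.04 and 0.38 at 8 h, in the order L-coded, D-coded and both agents, with the median of all genes within 0.0251 of 0 in each. The D-coded count at 8 h was 0 or 1 without replicate 1 or 2 of vehicle or replicate 1 or 3 of the D-coded group. These comparisons share their vehicle libraries.

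The single treatments also differed from each other. In the L-coded libraries 5 of the 9 genes were higher than in the D-coded libraries at 2 h (18.1% of all genes called): Tgfb1, Tgfb2, Ltbp1, Ltbp2 and Tgfbi. The log2 differences were 1.59 for Tgfb2 (adjusted p = 5.2e-12) and 0.50 for Ltbp1 (adjusted p = 1.29e-05). The other calls were lost without single libraries: Tgfb1 without any 1 of the 6 (adjusted p = 0.0517 to 0.160), Ltbp2 without any but replicate 1 of the D-coded group (adjusted p = 0.0511 to 0.140), and Tgfbi without L-coded replicate 2 or D-coded replicate 3 (adjusted p = 0.1 to 0.112). At 8 h 4 were higher and 1 lower (17.6% of all genes called): Ltbp2 by 1.31, Tgfbi by 1.07, Ltbp1 by 0.87 and Tgfbr2 by 0.26, with Tgfb3 at -0.57. The Tgfbr2 call was lost without replicate 2 or 3 of the L-coded or 1 or 3 of the D-coded group (adjusted p = 0.0560 to 0.0727). Without the 2 libraries that stood apart, neither of which is in these groups, the 5 calls at 8 h were kept (Tgfbr2 at 0.28, adjusted p = 0.00177), and Tgfb1 (0.52, adjusted p = 0.00508) and Tgfb2 (0.22, adjusted p = 0.0371) also passed, as did Ltbp3 (0.45, adjusted p = 0.0319) and Tgfbr2 (0.19, adjusted p = 0.0322) at 2 h.

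Adding the second agent was compared with each single treatment. At 2 h 0 of the 9 genes differed by edgeR between both agents and the L-coded libraries (0.767% of all genes called); 2 had an unadjusted p below 0.05 (Tgfb2 and Tgfbr2) and DESeq2 called 0. Against the D-coded libraries 5 were higher at 2 h (18.7% of all genes called), led by Tgfb2 with 1.36; the Tgfb3 call of 0.24 was lost without D-coded replicate 2 or combined replicate 1 or 3 (adjusted p = 0.0706 to 0.0999). At 8 h, 1 gene was higher and 3 lower with both agents than in the L-coded libraries (9.18% of all genes called): Tgfb3 by 0.88, Tgfb2 at -0.87, Tgfbr2 at -0.44 and Tgfbi at -0.36. The Tgfbi call was lost without L-coded replicate 1 or 3 or combined replicate 1 (adjusted p = 0.0528 to 0.0723). Against the D-coded libraries 4 were higher and 1 lower at 8 h (22.9% of all genes called): Ltbp2 by 1.21, Ltbp1 by 0.85, Tgfbi by 0.71 and Tgfb3 by 0.31, with Tgfb2 at -0.68. Without the 2 libraries that stood apart, the 9 calls at 8 h kept their direction and passed, the Tgfbi difference from the L-coded libraries at -0.41 (adjusted p = 0.0204) and the Tgfb3 difference from the D-coded libraries at 0.29 (adjusted p = 0.0118). At 2 h Tgfb1 (0.47, adjusted p = 0.00902) and Ltbp3 (0.48, adjusted p = 0.024) then also passed against the D-coded libraries.

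The interaction term asks whether the combined effect on the log2 scale differs from the sum of the single effects. At 8 h it was called for 2 of the 9 genes (7.68% of all genes called). Tgfb3 lay 0.69 ± 0.10 above the sum (adjusted p = 0.00143): the single differences were -0.38 and 0.20, and the combined one was 0.51. Tgfb2 lay below the sum, at -0.83 ± 0.12 (adjusted p = 0.00143): the single differences were 0.15 and -0.04, and the combined one was -0.72. Without the 2 libraries that stood apart the terms were 0.66 (adjusted p = 0.00903) and -0.70 (adjusted p = 0.00995), and the Tgfb2 term had an adjusted p of 0.0547 when only the groups at 8 h were fitted. The number of all genes called for the term at 8 h was 1262, and 25 without those 2 libraries; 4 or 5 of the 9 genes were called without vehicle replicate 3, D-coded replicate 1 or combined replicate 3. At 2 h 0 of the 9 genes were called by edgeR (0.0365% of all genes called), 1 had an unadjusted p below 0.05 (Ltbp1) and DESeq2 called 0.

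The vehicle libraries at 8 h were also compared with those at 2 h. In vehicle, 2 of the 9 were lower at 8 h than at 2 h (14.6% of all genes called): Tgfb2 at -0.76 and Tgfbi at -0.30, the latter call lost without replicate 1 or 2 of vehicle at 2 h or replicate 2 or 3 at 8 h (adjusted p = 0.0829 to 0.167) and without the 2 libraries that stood apart (-0.27, adjusted p = 0.12). The L-coded effect differed between 8 h and 2 h for 5 of the 9 (4.17% of all genes called): it was larger at 8 h for Ltbp1, Ltbp2 and Tgfbi and lower for Tgfb2 and Tgfb3. The combined effect differed for 3 (9.68% of all genes called), with Ltbp1 and Ltbp2 higher and Tgfb2 lower at 8 h. The L-coded change of Tgfbi (0.49, adjusted p = 0.0611) and the combined change of Ltbp1 (0.24, adjusted p = 0.133) did not pass without the 2 libraries. The D-coded effect differed for 0 by edgeR (6.76% of all genes called), with 2 at an unadjusted p below 0.05 (Ltbp2 and Ltbp3) and 1 called by DESeq2; 2 were called without vehicle replicate 3 at 8 h and 1 without D-coded replicate 1 at 8 h.

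The 9 genes varied unequally within groups. The leading component of deviations from group means held 15.6% of the variance of those deviations over all tested genes, with the highest scores in vehicle replicate 2 (41.3) and combined replicate 2 (35.1) at 8 h. Over the 24 libraries, Pearson's r between this score and a gene's deviation was -0.975 for Ltbp3, -0.955 for Tgfb1, -0.953 for Ltbp2, -0.895 for Tgfbr2 and -0.627 for Tgfb2, and -0.36 for Ltbp1, -0.054 for Tgfbi, 0.125 for Tgfb3 and 0.394 for Tgfbr1. The score was derived from the same libraries and genes. Tgfb1 and Ltbp3, with 62.5% and 61.5% G and C in their leading transcripts, stood at the 98.4 and 97.5 percentiles of tested genes. Ltbp2 stood at 91.3, Tgfbr2 at 74.4, Tgfb3 at 65.8, Tgfbi at 65.5, Ltbp1 at 45.8, Tgfb2 at 34.1 and Tgfbr1 at 9.36. Over 16413 genes the component's gene loadings had a Spearman correlation of -0.33 with G and C content and -0.28 with log transcript length. The part of base composition or transcript length in the results for these genes was not tested.

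**Figure D5:**
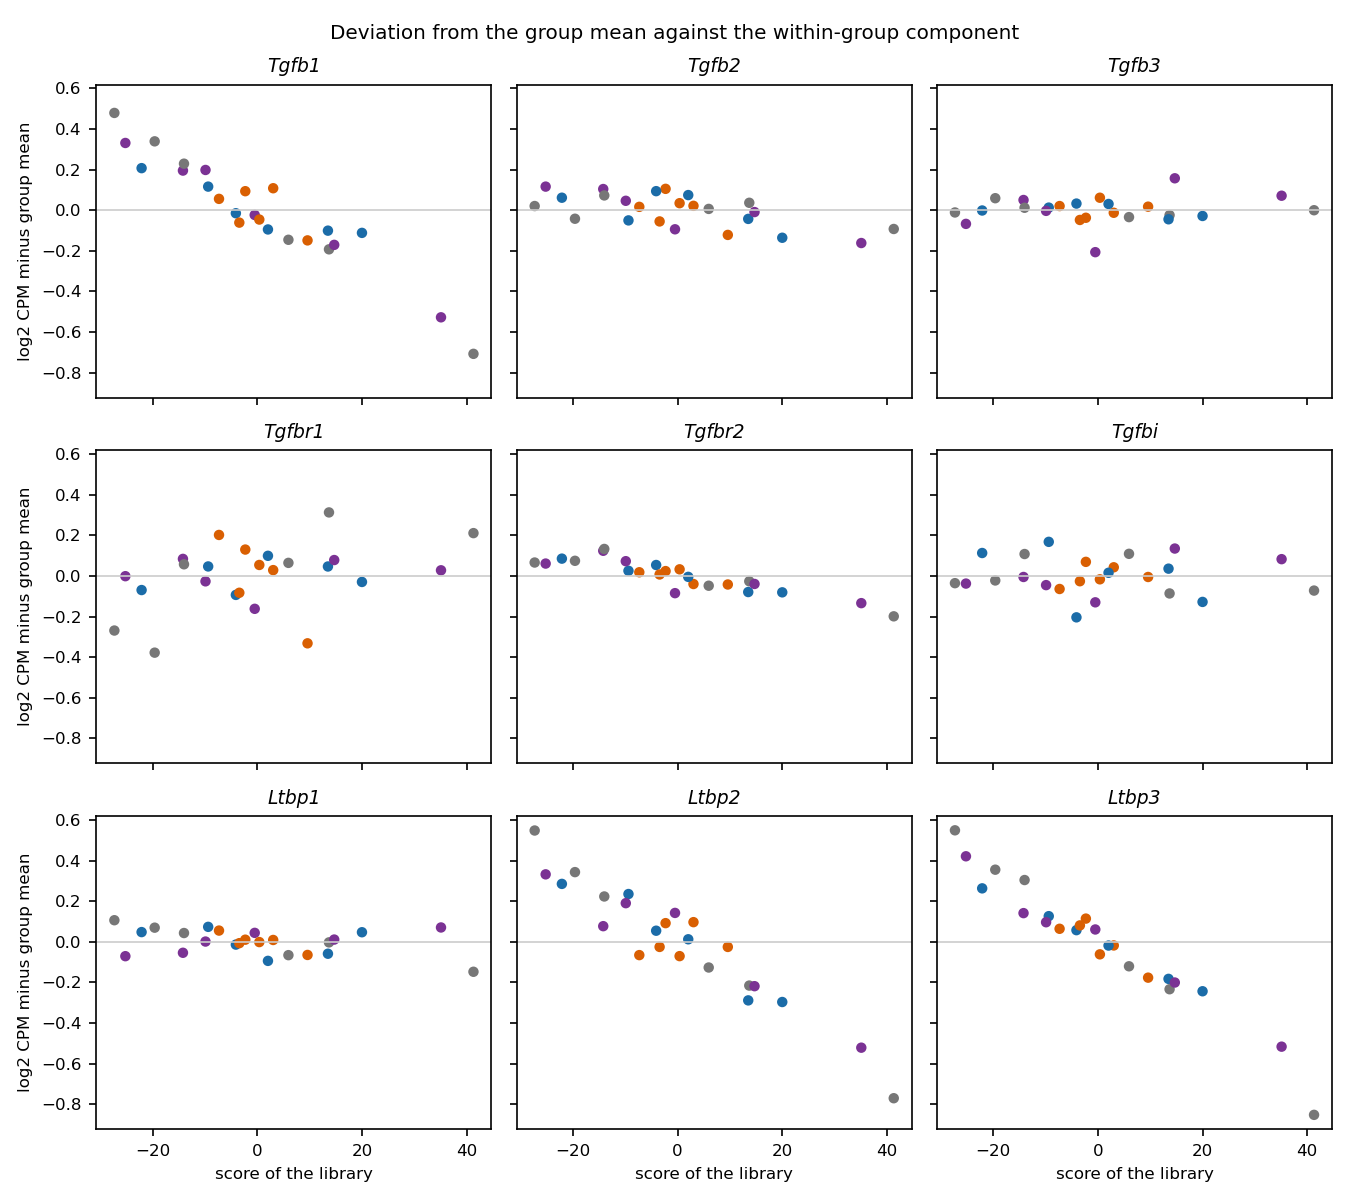
Deviation of each gene from its group mean (log2 CPM) against the library's score on the leading component of within-group variation, for 24 libraries. Ltbp3, Tgfb1 and Ltbp2 fall along the score (r of -0.975, -0.955 and -0.953), while Tgfb3 (0.125) and Tgfbi (-0.054) show little relation to it; colours are as in the plot of counts by library.

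Across the 8 group means, the genes with the most similar pattern to Tgfb2 were Palld (Pearson's r 0.993), Rel (0.989) and Nup98 (0.986), out of 11268 genes compared. For Ltbp1 they were Gpr176 (0.982), Timp1 (0.980) and Ptgs2os (0.975), for Ltbp2 Lox (0.989), Col5a3 (0.988) and Tatdn1 (0.968), and for Tgfbi Atp1b1 (0.977), Cyth3 (0.973) and Hmga2 (0.967). Genes near the top for Tgfb3 had lower values, among them Hspa8 (0.941) and Smchd1 (0.908). Among the 9 genes, Ltbp1 and Ltbp2 had an r of 0.91 and Tgfb3 and Tgfbr2 one of -0.62. The points share their libraries and time courses, and these values are descriptions over 8 groups.

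Genes around these 9 were read from lists of the pathway, also chosen with earlier results of these data known. Of 26 tested genes of latency and activation, 6 rose and 0 fell in the L-coded libraries at 2 h, 7 rose and 1 fell with both agents, and 0 rose and 1 fell in the D-coded libraries. Of all tested genes, 13.9%, 19.9% and 0.785% were called in these comparisons. Thbs1, a matrix activator of latent TGF-beta, averaged 883 CPM in vehicle at 2 h. It rose by 1.5 in the L-coded libraries and 1.45 with both agents at 2 h, and fell by 0.37 in the D-coded libraries. At 8 h it was called down in the D-coded and combined libraries. Plau, the urokinase protease, rose by 1.02 and 1.07 at 2 h in the L-coded and combined libraries. At 8 h the list had 7 up and 3 down in the L-coded, 3 up and 5 down in the D-coded and 5 up and 4 down in the combined libraries, where 16.2%, 12.0% and 16.8% of all genes were called. Lrrc32, which tethers latent TGF-beta to the cell surface, rose by 1.61 in the L-coded libraries at 8 h. It was also called up in the L-coded and combined libraries at 2 h, and in the D-coded and combined libraries at 8 h. The transglutaminase Tgm2 rose by 2.24 in the D-coded and 2.70 in the combined libraries, and Fbn1, the microfibril protein fibrillin-1, by 1.28 and 1.14. Plau fell by 0.94 and 0.85 in these same groups. Fbn1 was also called up in the L-coded libraries at 8 h, and Tgm2 in the L-coded and combined libraries at 2 h. The list medians ranged from -0.12 to 0.32 over the 6 comparisons with vehicle. Whether the counts are particular to the list was not tested.

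Of 12 coreceptors and receptor regulators, 2, 0 and 4 rose and 0, 0 and 1 fell at 2 h in the L-coded, D-coded and combined libraries, and 4, 3 and 4 rose and 0, 1 and 2 fell at 8 h. The shares of all genes called were 13.9%, 0.785% and 19.9% at 2 h and 16.2%, 12.0% and 16.8% at 8 h, and the L-coded count at 2 h is near its share. Pmepa1, a feedback inhibitor of TGF-beta signalling, rose by 1.24, 1.93 and 1.57 at 8 h. Of 22 SMADs and their regulators, 6, 0 and 8 rose and 2, 0 and 1 fell at 2 h, and 6, 3 and 4 rose and 0 fell in each at 8 h. Against the same shares of all genes, the D-coded and combined counts at 8 h are near the background and are no result about the list. Tgif1 and Skil, corepressors of SMAD complexes, rose by 1.43 and 1.00 in the L-coded libraries at 2 h. Of 7 other superfamily ligands that could be tested among 19 listed, only Inhba, the activin A subunit, was called: it rose by 2.38 and 2.19 in the L-coded and combined libraries at 2 h and by 0.61 in the L-coded libraries at 8 h, and fell by 1.04 and 0.58 in the D-coded and combined libraries at 8 h.

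Of 41 tested genes listed as transcriptional targets of TGF-beta, 25 rose and 4 fell in the L-coded libraries at 2 h, 26 rose and 4 fell with both agents, and 4 rose and 0 fell in the D-coded libraries, with medians of 0.67, 0.81 and 0.04. Of all genes 13.9%, 19.9% and 0.785% were called in these comparisons. At 8 h 23 rose and 5 fell in the L-coded libraries, 11 rose and 13 fell in the D-coded libraries, and 18 rose and 6 fell with both agents, with medians of 0.56, 0.06 and 0.30, beside 16.2%, 12.0% and 16.8% of all genes. Bhlhe40, a helix-loop-helix repressor, rose by 1.66 in the L-coded and 1.63 in the combined libraries at 2 h. Timp1, a metalloproteinase inhibitor, rose by 2.07 and 2.01 at 8 h. Tsc22d1 rose by 1.11 in the D-coded libraries at 2 h, and by 1.76 and 1.88 in the D-coded and combined libraries at 8 h. It was also called up in the L-coded libraries at both times and in the combined libraries at 2 h. Id2, an inhibitor of helix-loop-helix factors, fell by 0.82, 0.87 and 1.40 in the L-coded, D-coded and combined libraries at 8 h. Many listed targets also respond to other signals, and TGF-beta protein or receptor activity was not measured. Of the markers of other cell types, Cd14 averaged 11.1, 18.8, 11.9 and 19.1 CPM and Sox9 5.63, 20.7, 4.96 and 14.4 CPM at 2 h in vehicle, L-coded, D-coded and combined libraries. At 8 h Cd14 averaged 12.2, 16.4, 10.7 and 22.5 CPM and Sox9 3.49, 7.19, 4.68 and 2.54 CPM in the same order, and their part in these results was not tested.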

How the data were processed

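The authors deposited, per the file headers, 1 table per library with the length, effective length, estimated counts and TPM of 139145 transcripts. Which quantifier made them is not given in these sources. The submitters' processing notes name mm39. Per the labels' protocols, RNA was column-purified and made into DNBSEQ libraries.

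Transcripts were joined to genes through GENCODE M21 (135078 matched, holding 99.45% to 99.60% of each library's counts), and the deposited estimated counts were summed per gene and rounded. The deposited TPM values were summed per gene and used only for levels and shares. Counts were tested with edgeR 4.0.16 (limma 3.58.1, R 4.3.3): TMM scaling, a minimum count of 10 in the low-count filter, 1 robust quasi-likelihood fit of 8 group means over 24 libraries (16 residual degrees of freedom), and Benjamini-Hochberg adjustment over 16424 genes at 0.05. CPM uses TMM-scaled library sizes, and at 32.96 to 33.84 M counts per library each of the 9 genes had at least 66.0 counts in every library. The procedure was tested on simulated data in which libraries varied independently. Those data held no shared within-group component, so the test does not cover its effect on the p-values.

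Alternatives were DESeq2 1.42.0, its size factors, no filter, only the groups compared, a replicate block, length-scaled counts and each library left out in turn; a within-group component as covariate, the removal of the 2 libraries highest on it and a block for vehicle and both agents at 8 h alone were chosen after seeing the data. The 9 genes are always named; of each pathway list, the 2 with the smallest p in each direction per comparison with vehicle could be named, and some genes that these rules reach are not reported here. The genes and lists were chosen with earlier results of these data known. Promoter windows are from RefSeq on GRCm38.p6 and were found for 8 of the 9 genes.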

Additional observations from a re-analysis of the deposited data

Results flagged for a closer look

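For 5 of the 9 genes the L-coded effect differed between times in a test of the difference itself (edgeR's quasi-likelihood test with Benjamini-Hochberg adjustment). As the effect at 8 h minus the effect at 2 h on the log2 scale, it was -1.17 for Tgfb2 (adjusted p = 1.24e-06), -0.59 for Tgfb3 (adjusted p = 7e-04), 0.43 for Ltbp1 (adjusted p = 0.00947), 1.52 for Ltbp2 (adjusted p = 0.0164) and 0.51 for Tgfbi (adjusted p = 0.0387). The Ltbp2 call was lost without replicate 1 of vehicle at 2 h (1.33, adjusted p = 0.0611), with length-scaled counts (adjusted p = 0.134) and with only the compared groups fitted (adjusted p = 0.0519). The Ltbp1 call was lost with no filter on low counts (adjusted p = 0.0598). The Tgfbi call was lost with no filter, length-scaled counts, the replicate block or the 2 libraries that stood apart left out (adjusted p = 0.13, 0.0946, 0.0553 and 0.0611), and without 10 of the 12 libraries in turn (adjusted p = 0.0537 to 0.107), the exceptions being vehicle replicate 3 at 2 h and vehicle replicate 1 at 8 h.

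The combined effect differed between times for 3 genes: -1.81 for Tgfb2 (adjusted p = 8.39e-10), 0.33 for Ltbp1 (adjusted p = 0.0286) and 1.20 for Ltbp2 (adjusted p = 0.0361). The Ltbp1 call was lost without replicate 1 or 3 of vehicle or of both agents at 2 h, or without replicate 2 of either at 8 h (adjusted p = 0.0529 to 0.0855), with only the compared groups (0.122), no filter (0.239) or length-scaled counts (0.0936), and without the 2 libraries (0.133). The Ltbp2 call was lost without replicate 1 of vehicle at 2 h, any combined library at 2 h, replicate 1 or 2 of vehicle at 8 h or replicate 1 or 3 of both agents at 8 h (adjusted p = 0.0517 to 0.119), with only the compared groups (0.16) or with length-scaled counts (0.468). The calls for Tgfb2 and Tgfb3 were kept in each of the alternatives run.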

How the results depend on the processing

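Of 162 log2 fold changes (9 genes, 18 comparisons), 60 were called; 36 of these calls were kept in every alternative run for them, 24 were lost in at least 1, 43 others passed in at least 1, and no called difference changed sign. The count of the 9 genes called moved, and the cause was not tested. For L-coded against vehicle at 2 h it was 2 in place of 3 with the replicate block and with any 1 of the 6 libraries left out. With only the compared groups fitted it was 4 in place of 6 for L-coded and for both agents at 8 h. With no filter it was 4 in place of 6 for both agents at 2 h. Given next are the moves of this count that were largest in proportion. With DESeq2 it was 1 in place of 0 (D-coded against vehicle, 2 h), 5 in place of 3 (D-coded, 8 h), 5 in place of 2 (interaction, 8 h) and 1 in place of 0 (change of the D-coded effect with time). With no filter it was 5 for the interaction at 8 h and 3 for the change of the D-coded effect. With length-scaled counts it was 1 for D-coded at 8 h, 1 in place of 2 for vehicle over time, 3 in place of 5 for the change of the L-coded effect and 1 in place of 3 for that of the combined effect. With only the compared groups fitted it was 0 for D-coded at 8 h, and 1 each for the interaction at 8 h, vehicle over time and the change of the combined effect. Without the 2 libraries that stood apart it was 2 for D-coded at 2 h and 1 for vehicle over time.

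With the within-group component as a covariate the counts were 7 (L-coded, 2 h), 5 (D-coded, 2 h), 6 (D-coded, 8 h), 2 (both agents against L-coded, 2 h), 8 (both agents against D-coded, 8 h), 6 (interaction, 8 h), 6 (vehicle over time) and 4 (change of the D-coded effect). That covariate was estimated from the same values, so its p-values are too small. Leaving out 1 library at a time gave 0 to 3 for D-coded at 8 h, 2 to 4 for L-coded against D-coded at 2 h, 2 to 5 for the interaction at 8 h, 1 to 2 for vehicle over time, and 3 to 5, 0 to 2 and 1 to 3 for the changes of the L-coded, D-coded and combined effects.

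The correlations did not meet the criterion for pairing: of 28 pairs of same-numbered libraries for each number, 2, 3 and 1 had a correlation of deviations over 0.1, with medians of 0.0174, 0.00553 and -0.0102. Vehicle and both agents at 8 h came nearest, with 0.0705, 0.355 and 0.253 for replicates 1, 2 and 3. Fitted alone with the block, that comparison had 7 genes called in place of 6, the added one being Ltbp3. With the replicate block over all libraries, 1 of the 9 genes was called for D-coded at 8 h and 1 for vehicle over time.

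Over all genes, the counts called also moved, and the cause was not tested. Leaving out 1 library, or another planned setting, gave 1487 to 2574 in place of 2285 (L-coded, 2 h), 69 to 373 in place of 129 (D-coded, 2 h), 1287 to 3408 in place of 2662 (L-coded, 8 h), 565 to 3302 in place of 1971 (D-coded, 8 h), 988 to 3004 in place of 2758 (both agents, 8 h) and 13 to 4203 in place of 1262 (interaction, 8 h). The covariate gave 4406, 2559, 5541, 5605, 4916 and 6129 for these. With 3 libraries a group, differences of Tgfb1, Ltbp2 and Ltbp3, whose within-group SD was 0.316 to 0.360 on the log2 scale, were measured less precisely than those of Ltbp1 and Tgfb3 (0.075 and 0.078).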
